A study of Rattus norvegicus with 24 samples.

Results

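The 8 genes described here belong to the podocyte, the epithelial cell that wraps the glomerular capillaries, and to the slit diaphragm, the filtering junction between its foot processes. They are Nphs1, Wt1, Podxl, Synpo, Ptpro, Plce1, Magi2 and Cd2ap. They were chosen by name and matched by symbol to Entrez identifiers, which gave 8 of the 17334 genes in the files, and all 8 passed the filter on low counts that kept 12778 genes. RNA had been sequenced from the whole left kidney of 24 male rats, so a podocyte transcript was diluted in the RNA of tubules, vessels, stroma and cyst epithelium. In such tissue, fewer podocytes and less RNA per podocyte cannot be told apart.

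All animals were PKD/Mhm (Cy/+) rats, heterozygous for a missense change in Anks6 that leads to cystic kidneys, and all were 8 months old. The 6 control animals (Ctrl) were untreated. A group of 6 received CoCM, a conditioned medium taken from human ABCB5+ stromal cells of the skin that had been grown beside activated human macrophages, and the sources differ on whether it was given i.p. or i.v. The other groups of 6 each received the human ABCB5+ cells, either i.p. (ipABCB5) or i.v. (ivABCB5), and treatment was monthly for 6 months. No animals without cysts were among the samples, and the carriers had been recognised by palpation. Animals are named by group and by the number in their label.

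The slit diaphragm is built from nephrin, the product of Nphs1, which bridges neighbouring foot processes, and from adaptors such as the products of Cd2ap and Magi2 that tie it to the actin skeleton. Podocalyxin, the product of Podxl, keeps the foot processes apart by its negative charge, synaptopodin (Synpo) bundles their actin, and Ptpro encodes a receptor tyrosine phosphatase of their apical surface. Wt1 is a transcription factor required to form and maintain the podocyte, and Plce1 encodes a phospholipase C needed for glomerular development. Loss of most of these genes causes proteinuria in humans or mice. Cd2ap, Plce1 and Magi2 are also used outside the podocyte, whereas Nphs1 and Podxl transcripts in the kidney come mainly from the glomerulus.

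Promoter sequences were available from RefSeq (assembly GRCr8) for 7 of the 8 members, the exception being Plce1. Shown are the 250 bases before the annotated start of the 3 members that varied most closely together across animals (Nphs1, Ptpro and Wt1, below) and of Cd2ap, which varied apart from them. Each runs 5′ to 3′ on the strand of its gene, and capitals mark matches on either strand to the 3 motifs searched. The motifs were GCGGGGGCG, a site of the WT1 and EGR type, TGCTGAC, the core of a MAF half-site, and TAATTA, a homeodomain core of the kind LMX1B can bind. None overlapped another.

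Nphs1, chr1:94848011-94848260, plus strand: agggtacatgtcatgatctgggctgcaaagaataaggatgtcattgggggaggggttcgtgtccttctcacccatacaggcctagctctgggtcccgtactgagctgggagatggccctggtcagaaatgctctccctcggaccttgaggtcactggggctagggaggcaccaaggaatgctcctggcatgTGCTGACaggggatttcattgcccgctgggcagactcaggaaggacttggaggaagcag
Ptpro, chr4:171895261-171895510, plus strand: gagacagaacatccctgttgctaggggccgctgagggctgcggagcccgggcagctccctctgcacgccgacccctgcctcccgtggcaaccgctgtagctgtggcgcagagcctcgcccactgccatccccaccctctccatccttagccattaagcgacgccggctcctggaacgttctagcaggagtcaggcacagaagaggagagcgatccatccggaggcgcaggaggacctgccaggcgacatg
Wt1, chr3:112021759-112022008, plus strand: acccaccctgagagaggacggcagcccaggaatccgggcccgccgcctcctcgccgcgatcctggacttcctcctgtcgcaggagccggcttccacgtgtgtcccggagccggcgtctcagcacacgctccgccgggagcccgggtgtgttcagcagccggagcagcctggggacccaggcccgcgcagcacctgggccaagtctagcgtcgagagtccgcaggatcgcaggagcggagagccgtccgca
Cd2ap, chr9:25583725-25583974, plus strand: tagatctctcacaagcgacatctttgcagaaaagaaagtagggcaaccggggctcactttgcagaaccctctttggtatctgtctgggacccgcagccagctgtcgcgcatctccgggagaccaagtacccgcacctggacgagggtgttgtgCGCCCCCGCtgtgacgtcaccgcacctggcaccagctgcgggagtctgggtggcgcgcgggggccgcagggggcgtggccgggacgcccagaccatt

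The Nphs1 promoter held 1 TGCTGAC, which begins 59 bases before the start, and the Cd2ap promoter held 1 match to GCGGGGGCG, read on the other strand. Of 27457 promoters of the same length, 3.55% held TGCTGAC, 2.49% held GCGGGGGCG and 4.94% held TAATTA. No other match was found in the 7 promoters. The GC content was 57.2% in Nphs1, 66.0% in Ptpro, 71.6% in Wt1 and 64.4% in Cd2ap, against a median of 52.0% over all promoters. The neighbouring gene before Nphs1 in that assembly is Kirrel2, which encodes another slit diaphragm protein and was read at 0.225 to 1.13 TPM.

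Estimated counts summed to between 9304601 and 14125442 per animal, so a floor of 3 counts stood for 0.212 to 0.322 CPM (counts divided by the total of their library). Animals 36 and 37 (ivABCB5), 38 (ipABCB5) and 39 (CoCM) stood apart. Their Spp1, an injury-induced secreted protein, was 326 to 566 TPM against 6141 to 13258 TPM in the other 20, and their Havcr1, the tubular injury marker KIM-1, was 1.8 to 8.51 TPM against 31.1 to 142 TPM. Their labels do not distinguish them, so results are given with them and, where stated, without them. TPM is an abundance corrected for transcript length as well as for library total, and is used below to compare levels between genes.

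Podocyte transcripts were present in every library. The median over the 24 animals was 62.0 TPM for Podxl, 39.9 for Cd2ap, 33.2 for Nphs1, 24.3 for Ptpro, 20.9 for Synpo, 14.2 for Wt1, 3.71 for Plce1 and 1.43 for Magi2. Nphs1 was above Ptpro in 24 of 24 animals, Wt1 above Plce1 in 24 and Plce1 above Magi2 in 24. The other neighbours in this order changed places between animals: Podxl was above Cd2ap in 17 of 24, Cd2ap above Nphs1 in 17, Ptpro above Synpo in 18 and Synpo above Wt1 in 20.

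The highest animal stood 2.95-fold (Podxl) to 6.09-fold (Magi2) above the lowest. The coefficient of variation over animals was 25.4% for Podxl and 45.8% for Cd2ap, the smallest and the largest of the 8, and the counting error expected from the mean count was 1.82% and 3.5%. Magi2 was the shallowest member, with 22 estimated counts in its lowest library (95% Poisson interval 13.8 to 33.3, for counting error only). The lowest value of 6 of the 8 members was in CoCM 26. CoCM 26, ipABCB5 41 and ivABCB5 37 had all 8 members among the 6 lowest animals, and Ctrl 12, ivABCB5 33 and ivABCB5 43 had 7 of 8 among the 6 highest. No Ctrl animal had more than 2 members among the 6 lowest, while ipABCB5 32 had 6.

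The group means of Nphs1, the nephrin gene, differed by less than the spread within groups. Nphs1 was lowest at 21.8, with a median of 34.3 and a highest value of 54.4 TPM in Ctrl. The same values were 17.0, 35.5 and 52.0 TPM in CoCM. In ipABCB5 the lowest animal had 20.1 TPM, the middle pair 29.6 and 30.4 and the highest 48.6 TPM, and in ivABCB5 the lowest, median and highest were 24, 37.2 and 48.4 TPM. All 4 ranges overlapped widely, and the means were 36.3 ± 12.7, 34.9 ± 11.5, 32.1 ± 9.82 and 36.9 ± 10.3 TPM in that order (SD, n = 6 each).

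The log2 fold change of Nphs1 against Ctrl was 0.08 ± 0.25 in CoCM (SE, 95% interval -0.44 to 0.61), -0.07 ± 0.25 in ipABCB5 (-0.59 to 0.45) and 0.12 ± 0.25 in ivABCB5 (-0.4 to 0.64). None passed edgeR's quasi-likelihood F-test, with adjusted p-values of 0.888, 0.981 and 0.861. The sign of the CoCM value was not stable. It was -0.1 without CoCM 39, the highest Nphs1 of its group at 52.0 TPM, -0.12 without animals 36 to 39, and -0.06 with all animals on both TPM scales and with voom weights. The intervals leave room for a change of about 0.6 on the log2 scale in either direction.

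**Figure D1:**
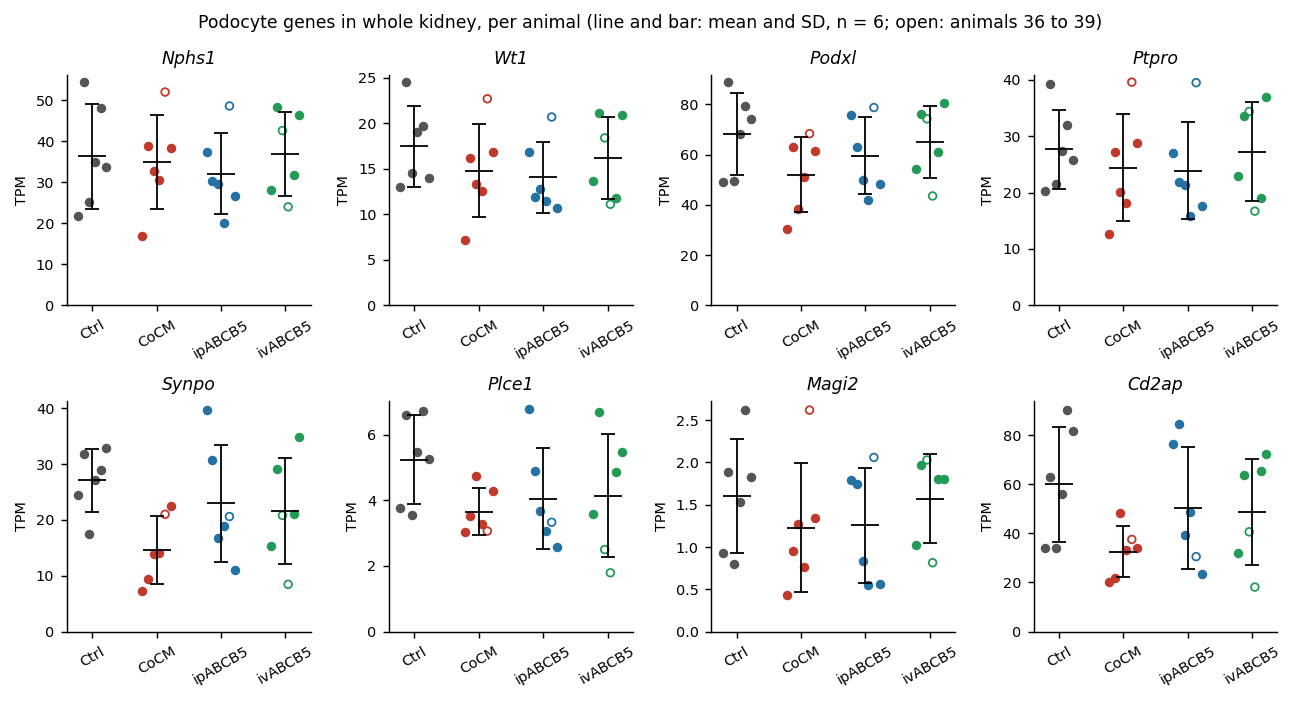
TPM of the 8 genes in each animal (points), by group, with the mean and SD (black, n = 6), each axis starting at 0 and open points for animals 36 to 39. Nphs1 runs from 17.0 to 54.4 TPM with overlapping groups, while in Synpo and Cd2ap 4 of the 6 CoCM animals lie below every Ctrl animal on the log2 CPM scale.

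Synpo and Cd2ap had lower group means in CoCM than in Ctrl, with differences that did not pass the adjusted threshold. Synpo in Ctrl was 17.4 TPM at the lowest, 28 at the median and 32.9 at the highest animal, against 7.33, 13.9 and 22.4 TPM in CoCM. On the scale of log2 CPM, all 6 CoCM animals were below the Ctrl mean and 4 were below the lowest Ctrl animal. The log2 fold change of Synpo was -0.77 ± 0.29 (SE, 95% interval -1.36 to -0.17), with an unadjusted p of 0.0143 and an adjusted p of 0.353 by edgeR's quasi-likelihood test, and an exact two-sided permutation p of 0.0152.

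Cd2ap in Ctrl was 34.1 TPM at the lowest, 59.5 at the median and 90.3 at the highest animal, against 20.3, 33.6 and 48.1 TPM in CoCM. Here too all 6 CoCM animals were below the Ctrl mean and 4 below its lowest animal in log2 CPM, and the groups overlapped through the lower Ctrl animals. The log2 fold change was -0.74 ± 0.30 (SE, 95% interval -1.35 to -0.13), with an unadjusted p of 0.0198 and an adjusted p of 0.374 by the same edgeR test, and an exact permutation p of 0.0325. The exact test was run on 40 pairs of member and comparison, and with 6 animals against 6 its smallest possible p is 0.00216. After Benjamini-Hochberg adjustment over the 40 tests it called 0, with an adjusted exact p of 0.491 for both Synpo and Cd2ap. A single test of 6 against 6 at its smallest possible p could not pass this adjustment alone. The 0 calls therefore do not show that there was no difference. Without animals 36 to 39 the log2 fold change was -0.95 for Synpo (adjusted p = 0.216) and -0.84 for Cd2ap (adjusted p = 0.23).

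In no comparison did any of the 8 members pass the edgeR test at an adjusted p of 0.05. The share of all tested genes that passed was 0.00783% in CoCM against Ctrl (1 gene, Ovca2, and 31 genes without Ctrl 23) and 0% in ipABCB5 against Ctrl, in ivABCB5 against Ctrl, in ipABCB5 against ivABCB5, in CoCM against the cell groups and over the 4 groups. At an unadjusted p under 0.05 the members counted 2 of 8 in CoCM against Ctrl, both lower, where 11.9% of all genes counted and 5.96% counted as lower. They counted 0 of 8 in ipABCB5 (1.77% of all genes), 0 in ivABCB5 (5.78%), 0 between the cell routes (2.14%), 0 in CoCM against the cells (7%) and 0 over the 4 groups (4.71%). DESeq2 also called 0 members in each comparison at an adjusted p of 0.05, whereas limma voom with sample quality weights called Synpo in CoCM (log2 fold change -1, adjusted p = 0.0461). Over the other alternatives the adjusted p of Synpo ran from 0.202 (without CoCM 40) to 0.588 (without CoCM 27), and it was 1 with the length slope described below as a covariate.

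The remaining members gave smaller differences. Plce1 was 3.56 to 6.73 TPM in Ctrl and 3.02 to 4.74 in CoCM, and the log2 fold change was -0.39 ± 0.21 (SE) in CoCM, -0.32 ± 0.21 in ipABCB5 and -0.29 ± 0.21 in ivABCB5, with adjusted p-values of 0.446, 0.978 and 0.686 in the edgeR test. In CoCM its exact permutation p was 0.0368 (adjusted over the 40 tests 0.491). Podxl, at 49.0 to 88.9 TPM in Ctrl and 30.2 to 68.3 in CoCM, had a log2 fold change of -0.26 ± 0.20 in CoCM (SE, adjusted p = 0.553 in edgeR), -0.11 in ipABCB5 and 0.02 in ivABCB5.

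Wt1 was 13.0 to 24.5 TPM in Ctrl, 7.22 to 22.7 in CoCM, 10.7 to 20.7 in ipABCB5 and 11.1 to 21.1 in ivABCB5, with log2 fold changes of -0.11, -0.22 and -0.02. Ptpro was 20.2 to 39.2 TPM in Ctrl, 12.6 to 39.6 in CoCM, 15.8 to 39.5 in ipABCB5 and 16.7 to 37 in ivABCB5, with log2 fold changes of -0.05, -0.11 and 0.07. For Magi2 the ranges were 0.804 to 2.62 TPM in Ctrl, 0.431 to 2.62 in CoCM, 0.548 to 2.06 in ipABCB5 and 0.814 to 2.03 in ivABCB5, and its log2 fold changes of -0.22, -0.26 and 0.08 had an SE of 0.39. In these 3 genes every treated group overlapped Ctrl.

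The comparisons with Ctrl share the same 6 control animals, and their values are therefore set side by side and not combined. The median log2 fold change of the 8 members was -0.24 in CoCM, -0.21 in ipABCB5 and 0.00 in ivABCB5, against medians of 0.01, 0.00 and 0.01 over all genes tested. Estimates were below 0 for 7, 8 and 4 of the 8 members, where 48.6%, 49% and 47.4% of all genes were below 0. The members varied together over animals (median r of 0.74, below), so their signs are not independent.

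**Figure D2:**
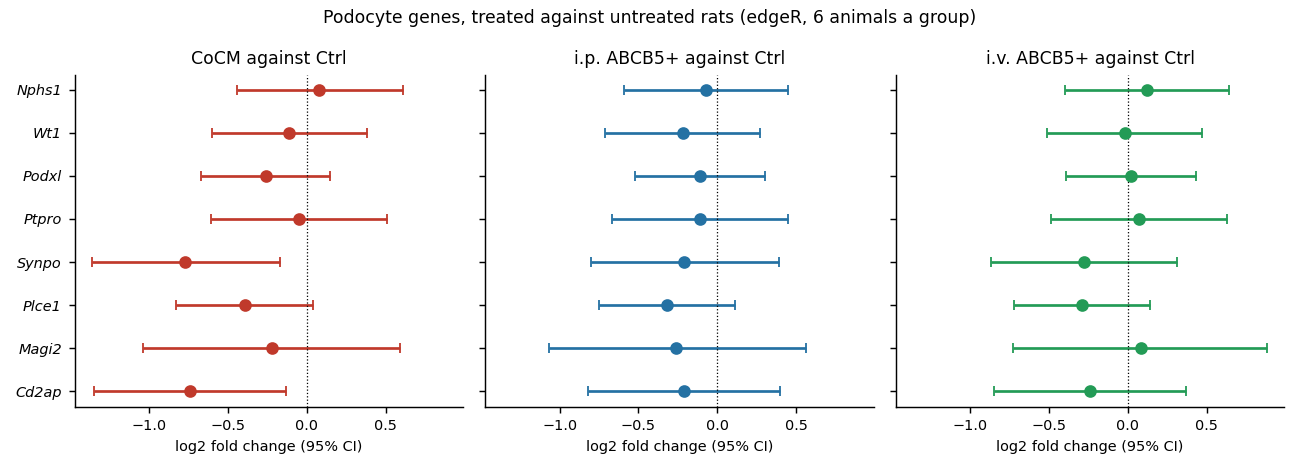
Log2 fold change (points) with its 95% interval (bars) for the 8 genes in each treated group against Ctrl, from edgeR with 6 animals a group. The CoCM intervals of Synpo (-1.36 to -0.17) and Cd2ap (-1.35 to -0.13) leave out 0 before adjustment, and all other intervals cover it.

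No member passed the adjusted test between the routes or between the forms of treatment. Between ipABCB5 and ivABCB5 the log2 differences ran from -0.33 (Magi2, 95% interval -1.15 to 0.48) to 0.07 (Synpo, -0.52 to 0.66). For CoCM against the cell groups (their 2 means averaged), Synpo was at -0.52 ± 0.25 (SE, 95% interval -1.05 to 0.00) and Cd2ap at -0.52 ± 0.26 (-1.06 to 0.02), both with an adjusted p of 0.688 in edgeR. The lower Synpo and Cd2ap of CoCM against Ctrl were thus not shown to be particular to CoCM. Without animals 36 to 39, 2 members reached an unadjusted p under 0.05 in that comparison and 0 an adjusted one. Of all genes, 1793 of 12884 reached that unadjusted threshold.

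Across animals, the 8 genes varied together to different degrees. Correlations of log2 CPM were taken over the 20 animals without 36 to 39, since clusters of animals are not pooled. In all 28 pairs of members r was above 0, with a median of 0.74. Nphs1, Wt1, Ptpro and Podxl varied most closely together. The closest pair was Wt1 with Ptpro (Pearson's r = 0.95, Spearman's rho = 0.93, permutation p = 1e-05 each, the smallest that 100000 resamples can give, adjusted over the 28 pairs to 4.67e-05 for r), and r was 0.92 without the 2 animals farthest from the median Wt1. Nphs1 with Ptpro gave r = 0.9 and rho = 0.84, Nphs1 with Wt1 r = 0.85 and rho = 0.8, and Podxl with these 3 genes r = 0.8 to 0.87.

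Among Synpo, Plce1, Magi2 and Cd2ap, r ran from 0.75 (Synpo with Magi2) to 0.91 (Plce1 with Magi2). Magi2 was not apart from the first set (Nphs1, Wt1, Ptpro and Podxl), as its r was 0.78 with Podxl and 0.75 with Nphs1. Over all 24 animals the r of Magi2 was 0.83 with both of these genes and 0.49 with Plce1. Cd2ap was the member least tied to the first set. Its r was 0.4 with Nphs1 (rho = 0.35, permutation p = 0.0801, adjusted 0.0863), 0.38 with Ptpro and 0.34 with Wt1, and these fell to 0.22, 0.13 and 0.1 without the 2 farthest animals. Across all 24 animals the pairs of Plce1 moved most (Nphs1 with Plce1 from 0.69 to 0.3). With group means removed, no r moved by more than 0.16.

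A rank among all genes sets these values in context, since many transcripts correlate in such data. Among 11652 other genes with an average log2 CPM above 1, Ptpro was at rank 1 in its r with Wt1 and at rank 3 in its r with Nphs1, counted from the highest r. Wt1 was at rank 10 and Podxl at rank 16 for Nphs1, whereas Cd2ap was at rank 1767 and Synpo at rank 1344, so 15.2% and 11.5% of genes were at least as close to Nphs1. Taken from Cd2ap, 25.9% of genes were at least as close as Nphs1 and 7.2% as close as Synpo. The ratio of Ptpro to Nphs1 in TPM lay between 0.594 and 0.928 in the 24 animals, a span of 1.56-fold, and that of Wt1 to Nphs1 between 0.372 and 0.597, a span of 1.61-fold. The ratio of Cd2ap to Nphs1 ran from 0.564 to 2.78, a span of 4.94-fold, and that of Synpo to Nphs1 from 0.241 to 1.12, or 4.65-fold.

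**Figure D3:**
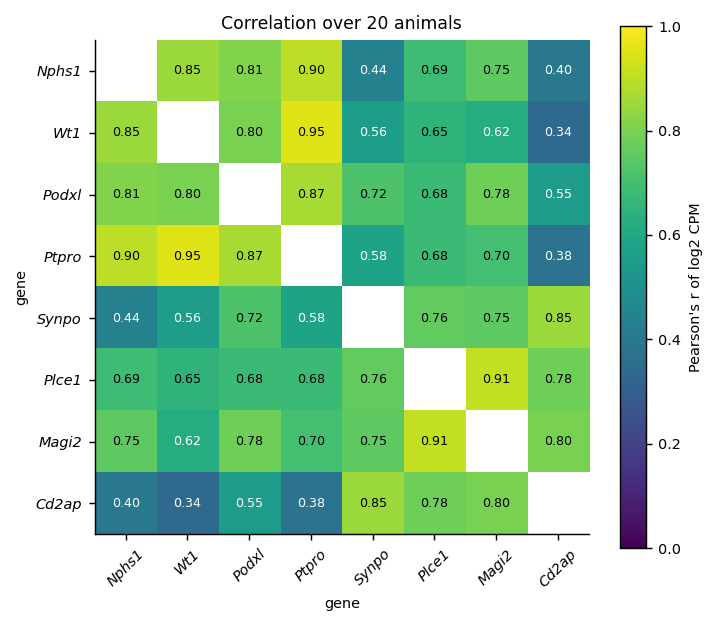
Pearson's r of log2 CPM between each pair of the 8 genes over 20 animals (without 36 to 39), coloured from 0 to 1. Nphs1, Wt1, Podxl and Ptpro reach 0.8 to 0.95 among themselves, and the lowest values, 0.34 to 0.4, join Cd2ap with Nphs1, Wt1 and Ptpro.

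The genes closest to each pattern were listed by r over the same 20 animals. For the mean log2 CPM of the 8 members they were Sema3g (r = 0.969, and 0.957 over 24 animals), which encodes a semaphorin secreted by podocytes, and Crb2 (0.932), a polarity protein of the slit diaphragm. Mertk (0.928), Kmt5b (0.923), Vav2 (0.911), Golim4 (0.909), Dmd (0.906), Mcc (0.905), Synj1 (0.903) and Npr3 (0.903), a natriuretic peptide receptor, completed the 10. For Nphs1 alone the closest were Ddn, which encodes the podocyte protein dendrin (0.899), Rxfp2 (0.898) and Ptpro (0.896). For Cd2ap they were Agps (0.988), an ether lipid enzyme, Itch (0.985), a ubiquitin ligase, and Xiap (0.985), an inhibitor of apoptosis, all widely used genes, listed after the values of Cd2ap had been seen. Kirrel1 of the slit diaphragm had r = 0.5 with Nphs1 and 0.92 with Cd2ap, and Col4a3, a chain of glomerular collagen IV, had 0.58 and 0.86. These r are descriptions over 20 libraries that share 1 scaling.

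A measure of the libraries moved most with Cd2ap, Magi2, Plce1 and Synpo. For each library, the slope of centred log2 CPM on log2 effective transcript length was taken over all genes, so that a positive slope means that long transcripts were read higher than on average. Slopes were -0.058 to 0.106 in Ctrl, -0.101 to -0.022 in CoCM, -0.09 to 0.1 in ipABCB5 and -0.069 to 0.075 in ivABCB5, and all 6 CoCM slopes were below 0. Over 20 animals the slope correlated with Cd2ap (r = 0.93, rho = 0.93, permutation p = 1e-05), Magi2 (r = 0.87), Plce1 (0.83), Synpo (0.82) and Podxl (0.7), and less with Nphs1 (0.54, permutation p = 0.0137), Ptpro (0.47) and Wt1 (0.39). An r above 0.8 was found for 8.99% of 11653 genes. The members' own effective lengths did not follow this order, as Cd2ap was at percentile 44.5 of all genes, Nphs1 at 95.1 and Plce1 at 98.7.

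The slope was added to the edgeR model as a covariate, chosen after seeing the data. With it, the CoCM difference was -0.36 for Synpo (unadjusted p = 0.116) and -0.11 for Cd2ap (unadjusted p = 0.429). In this fit 0 of 8 members, and 747 of 12778 genes, had an unadjusted p under 0.05. The median slope was 0.035 in Ctrl, -0.027 in CoCM and -0.019 in ipABCB5, with overlapping ranges, and a difference between groups was not tested. The lower median of CoCM means that the slope and the treatment are partly confounded in this fit.

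**Figure D4:**
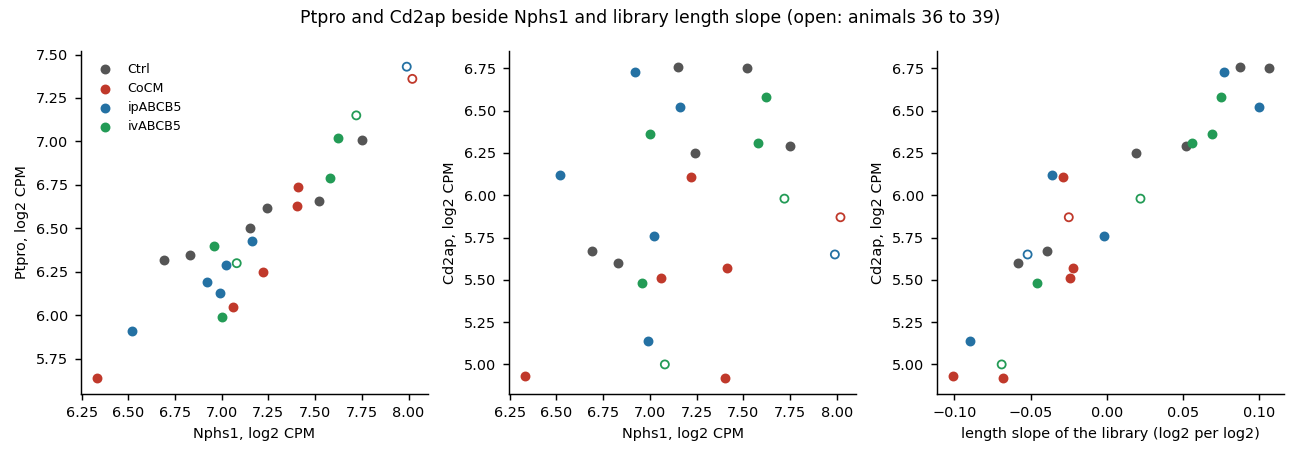
Ptpro against Nphs1 (left), Cd2ap against Nphs1 (middle) and Cd2ap against the length slope of the library (right) in each animal, coloured by group, genes in log2 CPM, open points for animals 36 to 39. Over the 20 filled points r is 0.9, 0.4 and 0.93.

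The glomeruli lie in the cortex, so Nphs1 was compared across the same 20 animals with genes of cortical and medullary segments. Slc5a2, the glucose transporter SGLT2 of the early proximal tubule, rose with Nphs1 (r = 0.56, rho = 0.65, permutation p = 0.00981, adjusted over 6 genes, 1 of them not reported here, 0.0252). Slc12a3, the thiazide-sensitive transporter of the distal convoluted tubule, did so as well (r = 0.55, rho = 0.51, permutation p = 0.0126, adjusted 0.0252). The relation held without the 2 animals farthest from the median of each gene (r = 0.63 and 0.57).

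Umod, uromodulin of the thick ascending limb, gave r = -0.45 (permutation p = 0.0449, adjusted 0.0539), and Aqp2, the water channel of the collecting duct, r = 0.03 (permutation p = 0.894, adjusted 0.894). Slc14a2, a urea transporter of the inner medulla, gave r = -0.56 (rho = -0.6, permutation p = 0.00567, adjusted 0.0252) and -0.57 without the 2 farthest animals. It was close to the detection floor in most libraries, with a median of 0.213 TPM against 19.9 TPM in ipABCB5 32, the animal with the lowest Nphs1 of its group at 20.1 TPM. Across all 24 animals r was 0.27 for Slc5a2, 0.74 for Slc12a3, 0.02 for Umod, 0.34 for Aqp2 and -0.42 for Slc14a2. How far the share of cortex in the RNA of each animal moved the podocyte genes was not tested.

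**Figure D5:**
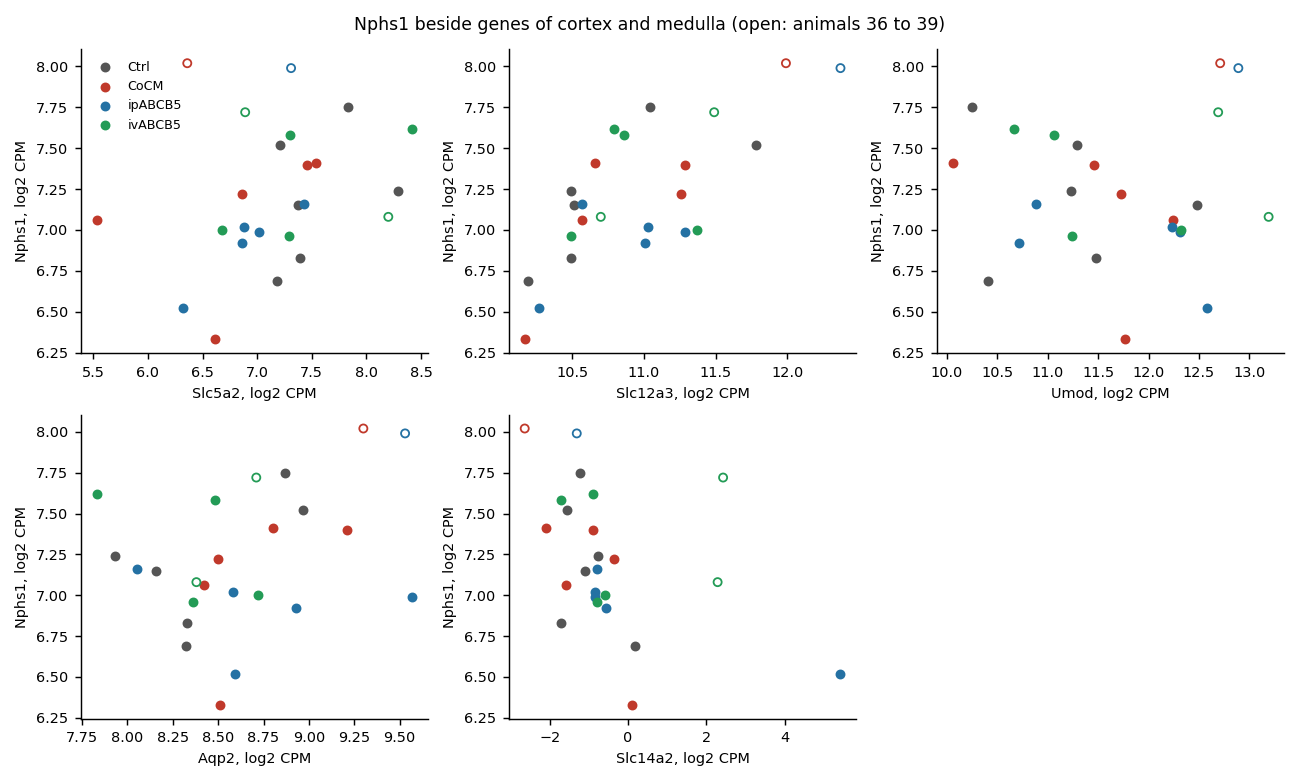
Nphs1 (vertical axes) against 5 segment genes (horizontal axes) in each animal, all in log2 CPM, coloured by group, open points for animals 36 to 39. Over the 20 filled points r is 0.56 for Slc5a2, 0.55 for Slc12a3, -0.45 for Umod, 0.03 for Aqp2 and -0.56 for Slc14a2.

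Among other genes of the podocyte and its surroundings, 0 genes of any list passed the adjusted edgeR test in any comparison. In CoCM against Ctrl, 4 of 16 further slit diaphragm and signalling genes had an unadjusted p under 0.05, all lower, where 5.96% of all genes were lower at that threshold, and the list's median log2 fold change was -0.23. Among them, Tjp1, the junction protein ZO-1, was 24.1 to 41.2 TPM in Ctrl and 17.6 to 25.2 TPM in CoCM (log2 fold change -0.42 ± 0.15, SE, adjusted p = 0.35 in edgeR). Kirrel1, the nephrin-like NEPH1, was 4.97 to 19.9 TPM in Ctrl and 2.79 to 10.5 in CoCM (-1.04 ± 0.45, SE, adjusted p = 0.383).

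At the same unadjusted threshold, 1 of 10 foot process cytoskeleton genes, 1 of 9 podocyte transcription factors, 1 of 15 secreted and surface genes and 2 of 8 basement membrane genes were lower, and 0 were higher. Of all genes, 5.96% were lower at that threshold, so that counts of 1 in 9 to 15 are near the background. Their median log2 fold changes were -0.06, -0.27, -0.25 and -0.17. Zhx2, a transcriptional repressor, was at -0.48 ± 0.18 (SE, adjusted p = 0.368 in edgeR), and Htra1, a secreted protease, at -0.25 ± 0.074 (SE, adjusted p = 0.257). In ipABCB5 the corresponding medians were -0.08, -0.04, -0.22, -0.09 and -0.06, starting with the slit diaphragm list, and in ivABCB5 -0.04, -0.01, -0.02, 0.09 and -0.05.

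The endothelial, mesangial, parietal epithelial and cortical proximal tubule lists had medians below 0 in CoCM, with 0 genes passing the adjusted edgeR test. Not all cortical genes were lower, as Slc12a3 and Calb1 of the distal convoluted tubule were at 0.26 and 0.37. Of 9 glomerular endothelial genes 2 were lower at an unadjusted p under 0.05 and of 8 mesangial genes 2, where 5.96% of all genes were, with medians of -0.16 and -0.31. The pan-endothelial list had 2 of 9 lower (median -0.29), the parietal epithelium 2 of 5 (-0.37) and the cortical proximal tubule 4 of 9 (-0.37). Tek, an endothelial receptor, was 22.4 to 30.8 TPM in Ctrl and 13.0 to 25.9 TPM in CoCM (log2 fold change -0.44 ± 0.14, SE, adjusted p = 0.301 in edgeR). The summed level of the glomerular endothelial list was 343 to 441 TPM in Ctrl and 209 to 380 in CoCM, and that of the members 167 to 310 and 98.0 to 247 TPM.

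Lists of the thick ascending limb and collecting duct had medians above 0 in CoCM (0.36 and 0.35), and those of fibroblasts and immune cells below 0 (-0.64 and -0.44), with sums of 383 to 1323 TPM for fibroblasts in Ctrl and 43.1 to 1042 in CoCM. The part of these cell types in the values of the podocyte genes was not tested.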

How the data were processed

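Total RNA of the left kidney had been sequenced on a BGI instrument. For each of the 24 animals the authors deposited estimated counts per Entrez gene, not normalized, together with TPM for the same genes, in which the authors had corrected for transcript length and sequencing depth. Per the labels, reads were trimmed with Trim Galore 0.6.4 and quantified with kallisto (version given as 0.4.6) against rn6, and the methods also name human gene models and DESeq2. Between 86.4% and 87.3% of the estimated counts in a library were whole numbers. Because kallisto divides reads among similar transcripts, counts of genes with close copies carry that uncertainty. Symbols came from a RefSeq table (GRCr8) that held 17179 of the 17334 identifiers, and no coordinates of rn6 were used.

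Estimated counts were rounded. Genes were filtered by filterByExpr (12778 kept), scaled by TMM and fitted over all 4 groups in edgeR 4.0.16 (R 4.3.3), with quasi-likelihood F-tests and Benjamini-Hochberg adjustment over all genes tested (threshold 0.05). Log2 CPM used a prior count of 2. Single members were also compared by two-sided exact permutation tests over animals, and correlations by permutation with 100000 resamples (scipy 1.17.1). The code was tested on simulated data. Groups came from the labels, and p-values measure the spread between animals. The closest libraries within a group differed by a chi-square of 10.31 per degree of freedom, so none was counted as a repeat.

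The members and lists were chosen with earlier results of these data known. List genes were named if they passed the adjusted test, were among 13 genes chosen by name, or had the smallest p of their list over the 4 groups, and genes of like pattern by the highest r. Alternatives were DESeq2 1.42.0, median-ratio size factors, other filters, only the groups compared, leaving out animals 36 to 39 or each animal in turn, limma 3.58.1 with voom quality weights, and limma on log2(TPM + 1) and log2(TPM + 0.1). The length slope covariate was added after seeing the data. List genes absent from the tables, such as Inf2, Anln, Dach1, Npnt and Col4a5, were not analysed here.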

Additional observations from a re-analysis of the deposited data

Results flagged for a closer look

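In 38 genes named or listed here, each of 152 sets of 6 animals was examined for a single animal far from the others, by the gap to its neighbour over the whole range. Chance alone would single out about 7.6 of them, and 6 were found, 0 of them among the 32 sets of the 8 members. In ipABCB5 38, Slc12a3 was 1370 TPM against 368 to 712 TPM in the other 5 animals. This is the animal that also had the highest Nphs1 of its group, and it is among the 4 with low Spp1. Slc14a2 was 19.9 TPM in ipABCB5 32 against 0.128 to 0.299, and 0.59 TPM in Ctrl 1 against 0.0672 to 0.259. Umod was 3784 TPM in Ctrl 24 (others 800 to 1840), Akap12 20.8 TPM in CoCM 40 (6.5 to 10.4) and Slc5a12 90.9 TPM in ivABCB5 43 (13.7 to 38.8).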

How the results depend on the processing

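The number of members called at an adjusted p of 0.05 was 0 in every comparison under all alternatives run, except limma voom with sample quality weights, which called 1 member (Synpo, CoCM against Ctrl) and 4 genes of the wider lists in that comparison (Angptl2, Slc5a12, Htra1 and Akap12, all lower). Under that setting, members at an unadjusted p under 0.05 numbered 4 in CoCM, 3 in ipABCB5 and 4 between routes. They numbered 2 in CoCM against the cells and 5 over the groups. Of all 12778 genes, 2834, 1242, 886, 2376 and 2265 were at that threshold, in the same order. Over all genes, adjusted calls in CoCM against Ctrl numbered 1 in the main analysis, 78 in DESeq2, 183 with voom weights, 31 without Ctrl 23 and 0 without Ctrl 12, 18, 22 or 24 or CoCM 26, 27 or 39. Genes at an unadjusted p under 0.05 in ivABCB5 against Ctrl numbered 738, and between 176 (without ivABCB5 37) and 1301 (without ivABCB5 28) with 1 animal left out. Leaving out any ivABCB5 animal, or Ctrl 1, 12 or 24, moved that number by over 1.5 times. Other main counts also moved by over 1.5 times with 1 animal left out (ranges below). They were 226 genes in ipABCB5, 274 between routes, 894 in CoCM against the cells and 602 over the groups. In CoCM against the cells the main count of members at an unadjusted p was 0. DESeq2 gave 2 (all genes 1112 of 12778) and no low-count filter 1 (1063 of 15402). The minimum of 10 counts gave 1 (858 of 11229) and leaving out animals 36 to 39 gave 2 (1793 of 12884). That omission also gave 1 member in ipABCB5 (179 of 12884 genes) and 1 over the groups (803). The length slope covariate gave 0 members in CoCM, against 2, and 747 of 12778 genes, against 1523. The causes of these moves were not tested.

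Leaving out each animal in turn gave 2 to 3 members at an unadjusted p under 0.05 in CoCM and 0 to 2 in CoCM against the cells. It gave 0 to 1 in ipABCB5, in ivABCB5 and over the groups. Of 12817 to 12840 genes tested, the same fits gave 1079 to 2014 in CoCM and 447 to 1702 in CoCM against the cells. They gave 81 to 633 in ipABCB5, 176 to 1301 in ivABCB5, 179 to 546 between routes and 373 to 786 over the groups. Synpo in CoCM ranged from -0.93 to -0.63 and Cd2ap from -0.89 to -0.64.

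Fold changes near 0 reversed in sign. Nphs1 in CoCM was -0.12 without animals 36 to 39 and -0.06 with voom weights and on both TPM scales, and -0.1 to 0.22 with 1 animal left out; in ipABCB5 it was 0.04 with the slope and -0.3 to 0.06. Podxl in ivABCB5 was -0.02 without animals 36 to 39, -0.07 on both TPM scales and -0.06 to 0.09. Ptpro in ivABCB5 was -0.02 with voom weights, -0.05 on both TPM scales and -0.05 to 0.17, and in CoCM 0.05 with the slope and -0.28 to 0.08. Wt1 was -0.31 to 0.03 in CoCM and -0.1 to 0.08 in ivABCB5. Magi2 was 0.27 in CoCM with the slope, and in ivABCB5 0.00 on log2(TPM + 1) and -0.06 to 0.21. With voom weights Plce1 was 0.00 and Cd2ap 0.06 in ivABCB5, and with the slope Cd2ap was 0.02 in ipABCB5. The gauge with Slc14a2 was -0.45 on log2(TPM + 1) (adjusted p = 0.0693), and over all 24 animals r moved to 0.27 (Slc5a2), 0.74 (Slc12a3), 0.02 (Umod), 0.34 (Aqp2) and -0.42 (Slc14a2).

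No paired analysis was possible because no animal number occurs in more than 1 group. Magi2 had the largest counting error of the members, 12.8%, beside a coefficient of variation over animals of 45.6%. Ctrl animals carry numbers 1 to 24 and treated animals 26 to 43, so any effect of that order and the treatment cannot be told apart.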

Other observations

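In the 4 animals with low Spp1, Nphs1 was 52 TPM in CoCM 39, 48.6 in ipABCB5 38, 42.6 in ivABCB5 36 and 24 in ivABCB5 37. Plce1 was 1.79 to 3.33 TPM and Umod 3710 to 4640 TPM in these animals, and ivABCB5 37 was low in all 8 members.

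Across the 6 control animals the ratio of Wt1 to Nphs1 in TPM ran from 0.408 to 0.597, and across the 6 CoCM animals from 0.406 to 0.44, a span of 1.08-fold, although Nphs1 itself spanned 3.07-fold in CoCM. The difference in span was not tested.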
